A study of Mus musculus with 18 samples.

Results

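The luminal progenitor regulators are 8 genes that were named as a list, Elf5, Ehf, Kit, Aldh1a3, Plet1, Cited4, Barx2 and Prom1, out of 31053 features counted. They were followed through 17 single cell libraries of mouse mammary gland, with 1 further library of embryonic skin set beside them. All libraries came from droplet capture of cells pooled from several mice. Endothelial and hematopoietic cells were removed by sorting on CD31, CD45 and TER119, and the remaining cells were sorted on CD24 and CD29, so the sort sets how many cells of each type were captured. No library received a treatment. The C57BL/6 libraries were embryonic mammary rudiments and adjacent skin at E18.5, glands at postnatal day 5 and at 2.5 weeks (pre-puberty), terminal end buds (TEBs) and, apart from them, ducts of 5-week-old mice, and the adult virgin gland at 10 weeks, with 1 library each. The embryos carried the Lgr5-GFP allele, whose fluorescence guided the dissection, and the TEBs and ducts came from E-cadherin-GFP mice. The FVB/NJ libraries were the adult virgin gland at 10 weeks (libraries A10, P7 and D12), pregnancy day 12.5 (H and G), pregnancy day 18.5 (F4 and B4), lactation day 10 (F11 and D6), together with a post-involution gland. That gland was labelled as 3 weeks after birth, while the study describes it as 3 weeks after weaning. A further library held the adult virgin gland of SWISS mice at 10 weeks. Tests were possible only between the 4 FVB/NJ stages with replicate libraries, and a p-value there measures the spread between libraries of pooled mice. The study states that FVB/NJ adult and post-involution cells were processed together, and states no group for the pregnancy and lactation libraries. Stage and processing group are therefore not separated in these tests, and their parts were not tested.

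After filtering, 132599 of 149371 barcodes were kept, and the totals ranged from 9920346 UMIs in adult library P7 to 93234616 in lactation library D6. Lactation libraries F11 and D6 kept 48.6% and 68.9% of their barcodes, against at least 86.2% in every other library. Cells were clustered without any of the 8 genes, and also without 8 milk protein genes, cell cycle genes and 5 lists of related genes. Clusters were named from fixed markers as basal, mature luminal (ML) or a joint class of luminal progenitor and alveolar cells, called LP/alveolar. The milk genes Csn3 and Lalba were among the markers used to name LP/alveolar clusters. Clusters that failed the naming rule were left out of every class, with 1438 cells at E18.5, 892 in SWISS, 1048 in D6 and 550 in F11. In the clustering that gave the SWISS classes, an unnamed cluster of 1966 cells had Kit and Ehf among its top genes. An unnamed FVB/NJ cluster of 2290 cells had cell cycle genes among its top genes. Statements on classes do not cover the unnamed cells. Another FVB/NJ cluster, of 2606 cells, also had cell cycle genes among its top genes. It was named basal with 3 of 11 basal markers raised and is part of the basal class. In the FVB/NJ libraries 1 cluster of 33230 cells, with all 12 LP/alveolar markers raised, held the LP/alveolar class at every stage. The names were less secure in the youngest glands, where clustering each library alone gave the same class to 46.9% of cells at E18.5 and 54.8% at postnatal day 5, so those libraries are described by their own clusters.

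Luminal progenitors are the KIT+ cells of the inner layer of the mammary duct that give rise to the milk-secreting alveolar cells of pregnancy, whereas mature luminal cells carry the hormone receptors and basal cells form the contractile outer layer. Elf5 and Ehf encode epithelial transcription factors of the ETS family, and ELF5 acts downstream of prolactin signalling and is needed for alveolar differentiation. Kit encodes the receptor for stem cell factor, and Aldh1a3 an enzyme that makes retinoic acid; both are widely used to mark luminal progenitors. Plet1 encodes a membrane-anchored surface protein of placenta and epithelia, Cited4 a transcriptional co-activator that binds CBP and p300, Barx2 a homeobox transcription factor, and Prom1 the membrane protein prominin-1 (CD133).

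In the mm10 build (GRCm38), Elf5 lies on the plus strand of chromosome 2 at 103411688 to 103450989, and Ehf on the minus strand at 103263433 to 103303278, so the 2 ETS genes are neighbours 108409 bases apart. Kit (chromosome 5, 75574916 to 75656722, plus strand) and Prom1 (chromosome 5, 43993620 to 44102032, minus strand) share a chromosome, as do Plet1 (chromosome 9, 50494525 to 50505482, plus strand) and Barx2 (chromosome 9, 31846044 to 31913462, minus strand). Aldh1a3 lies on chromosome 7 at 66390890 to 66427517 on the minus strand, and Cited4 on chromosome 4 at 120666572 to 120667820 on the plus strand. All 8 are protein-coding. RefSeq promoter sequences (GRCm38.p6) were matched for 5 of the 8 members, Elf5, Kit, Plet1, Cited4 and Prom1. The 250 bases before a start are shown for 1 member that was not called at any step of the cycle in LP/alveolar cells (Elf5, second start), 1 that was higher in pregnancy and lactation (Cited4) and 2 that were lower in lactation (Kit, first start, and Plet1). Capitals mark the ETS core GGAA on either strand.
Elf5 (chr2:103423818-103424067, plus strand): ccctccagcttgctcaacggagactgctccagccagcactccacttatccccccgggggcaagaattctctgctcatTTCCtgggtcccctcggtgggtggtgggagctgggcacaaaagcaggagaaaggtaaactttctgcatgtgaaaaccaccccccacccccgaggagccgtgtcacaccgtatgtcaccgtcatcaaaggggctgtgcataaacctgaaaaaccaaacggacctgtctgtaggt
Cited4 (chr4:120666313-120666562, plus strand): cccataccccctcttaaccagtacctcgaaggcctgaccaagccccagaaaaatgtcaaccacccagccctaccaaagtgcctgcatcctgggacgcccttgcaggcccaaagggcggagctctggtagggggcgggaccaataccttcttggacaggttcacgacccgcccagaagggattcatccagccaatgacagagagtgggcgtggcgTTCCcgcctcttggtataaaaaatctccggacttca
Kit (chr5:75574737-75574986, plus strand): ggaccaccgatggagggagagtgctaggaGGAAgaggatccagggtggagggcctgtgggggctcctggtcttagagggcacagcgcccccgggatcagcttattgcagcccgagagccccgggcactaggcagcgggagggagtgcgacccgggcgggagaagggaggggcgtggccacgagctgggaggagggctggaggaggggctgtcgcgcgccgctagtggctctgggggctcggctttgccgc
Plet1 (chr9:50494275-50494524, plus strand): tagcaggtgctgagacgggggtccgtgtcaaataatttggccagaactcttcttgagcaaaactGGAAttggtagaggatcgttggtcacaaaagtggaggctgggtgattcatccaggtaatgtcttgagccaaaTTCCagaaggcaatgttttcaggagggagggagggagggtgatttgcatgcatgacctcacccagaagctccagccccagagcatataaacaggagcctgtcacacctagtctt
A core of GGAA was found in 93.4% of the 32851 promoters of this length. The STAT element TTCNNNGAA, the motif of the factor activated by prolactin, was absent from the 8 promoter entries of the 5 members and present in 7.02% of all promoters searched on both strands.

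Levels are given as CPM, the UMIs of a gene per 1000000 UMIs of the class outside 8 milk protein genes, because milk transcripts took 77.2% and 78.2% of all UMIs in the LP/alveolar cells of the lactation libraries. In the 5 adult libraries of 3 strains, among the 3 epithelial classes, 7 of the 8 members were highest in LP/alveolar cells, apart from Cited4 in FVB/NJ libraries A10 and P7. In those Cited4 stood higher in ML cells (34.5 against 29.8 and 119.6 against 47.9 CPM). Prom1 was highest in ML cells. The LP/alveolar class of C57BL/6 also held ML markers, as given with Prom1. These differences between classes are a description, since clusters define the classes. Elf5 was 46.3 to 136 times higher in LP/alveolar than in basal cells and 12.5 to 96.9 times higher than in ML cells. Ehf was 33.8 to 223 times, Kit 15.2 to 132 times, Plet1 31.6 to 192 times and Aldh1a3 9.49 to 91.1 times higher in LP/alveolar than in basal cells. Cited4 and Barx2 had narrower ratios to basal cells, of 9.0 to 49.5 and 8.69 to 21.2.

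Prom1 went against its place in the list. In ML cells it stood at 92.6, 169 and 37.4 CPM in the FVB/NJ adults A10, P7 and D12, at 93.4 in C57BL/6 and at 23.0 in SWISS, and in LP/alveolar cells of the FVB/NJ and SWISS adults it lay between 3.71 and 11.2. In C57BL/6 the LP/alveolar class had Prom1 at 33.1 and also held ML markers at a summed 3836 CPM, against 140.2 to 851 in the other 4 adults. With each library clustered alone, the LP/alveolar level of Prom1 was 2.71 in C57BL/6 and 2.09 to 3.75 in the other adults, and the ML level 23.2 to 171 in the 5 libraries. Among the 3 epithelial classes, Prom1 was highest in ML cells in the 15 mammary libraries other than E18.5 and postnatal day 5, which are left out for their less secure names. In the same 15 libraries, Elf5, Ehf, Kit, Aldh1a3 and Plet1 were highest in LP/alveolar cells in all, Barx2 in 14 and Cited4 in 13.

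The share of cells with at least 1 UMI was compared after every cell was thinned to 2000 UMIs, leaving out shallower cells. In LP/alveolar cells of the 3 FVB/NJ adults, Plet1 was seen in 84.5 to 98.7% of cells, Elf5 in 25.9 to 44.5%, Ehf in 16.1 to 24.5%, Barx2 in 9.50 to 24.5%, Aldh1a3 in 12.5 to 42.1%, Kit in 9.06 to 20.7%, Cited4 in 5.16 to 18.3% and Prom1 in 0.479 to 1.70%. In basal cells of the same libraries no member apart from Plet1 exceeded 2.32%. In stromal cells of the 5 adult libraries, where Elf5 and Kit transcripts can come from free RNA, Elf5 was seen in at most 1.01% and Kit in at most 1.99% of thinned cells. Aldh1a3 was an exception, seen in 26.4 to 36.7% of stromal cells, at 185 to 238 CPM. Its level in stromal cells was above that in LP/alveolar cells in A10 (185 against 90.2), P7 (238 against 104) and SWISS (223 against 55.4), and below it in D12 and C57BL/6.

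**Figure D1:**
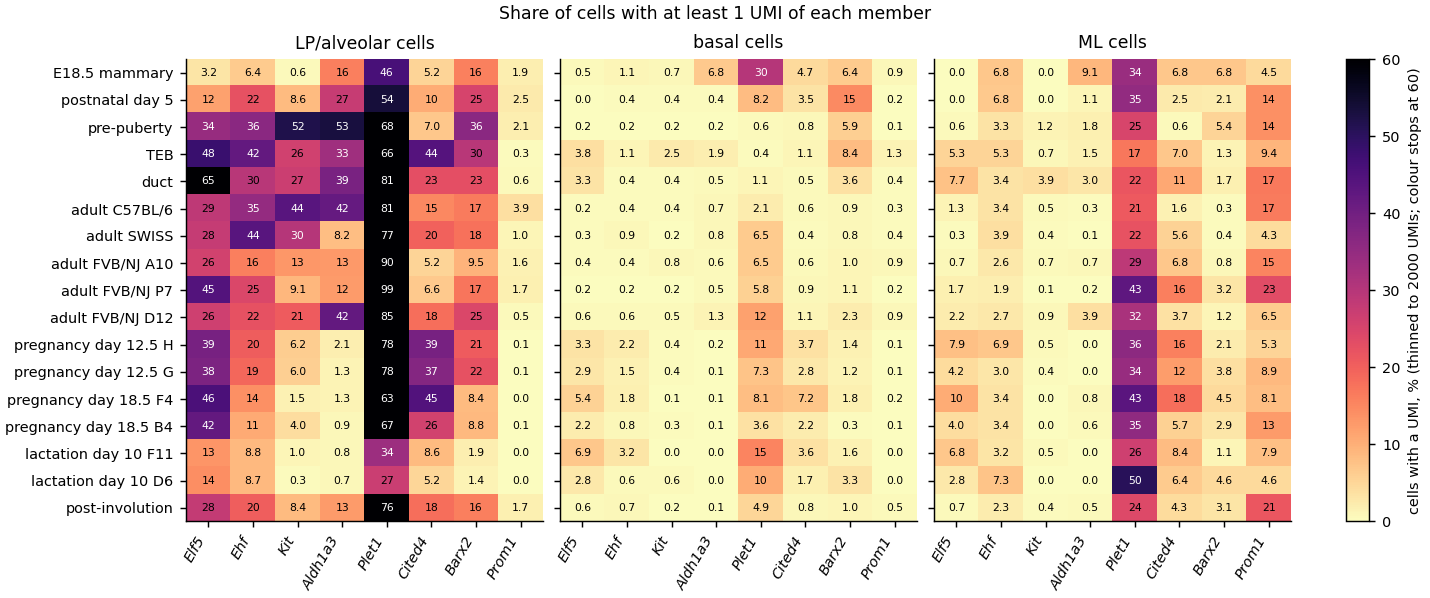
Share of cells (in %) with at least 1 UMI of each member after thinning to 2000 UMIs, in LP/alveolar, basal and ML cells (panels) of the 17 mammary libraries (rows), with the value printed in each cell and the colour ending at 60%. Plet1 was the most widely seen member of the LP/alveolar class in all 17 libraries, Prom1 was seen mainly in ML cells, and the LP/alveolar shares of lactation were counted with milk UMIs included. The E18.5 and postnatal day 5 rows rest on the less secure names.

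To ask which members stay and which are lost as progenitors become alveolar, the FVB/NJ stages were compared over libraries with edgeR's quasi-likelihood test on counts summed per library, with adjustment over all genes tested and a call at adjusted p under 0.05. By pregnancy day 12.5, 2 of the 8 members had fallen in LP/alveolar cells and 1 had risen. The background was 7.20% of 13875 genes called lower and 6.29% called higher. Aldh1a3 stood at 90.2, 104 and 371 CPM in the 3 adults and at 11.1 and 8.62 in the 2 libraries of day 12.5. All 3 adult values lay above both pregnancy values, although the adults differed among themselves, and the fold change was 17.1-fold lower (log2 -4.10 ± 0.66 SE, edgeR adjusted p = 0.0056). Without adult library D12, where Aldh1a3 was highest, it was called at log2 -3.20. Prom1 stood at 11.2, 11.2 and 6.16 in the adults and at 0.43 and 0.35 on day 12.5, a fall of 22.2-fold (adjusted p = 0.0040 by edgeR). The pregnancy values rest on 16 and 10 UMIs of Prom1, and with the clusters of each library alone the fall was smaller (log2 -3.21, also called). The 10 ML markers, whose cells express Prom1 most, moved with it inside the LP/alveolar class, at a summed level of 719 to 851 CPM in the adults and 95.3 and 85.3 on day 12.5. ML cells made up 27.7, 32.7 and 28.6% of the kept cells of the adults and 1.82 and 1.84% on day 12.5. The part of ML cells or of their RNA in the Prom1 result was not tested.

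Cited4 moved the other way. It stood at 29.8, 47.9 and 107 CPM in the adults and at 309.6 and 292 on pregnancy day 12.5, so that both pregnancy libraries lay above all 3 adults. The change was 5.48-fold higher (log2 2.46 ± 0.50 SE, edgeR adjusted p = 0.0140), and log2 3.09 without D12. Its share of LP/alveolar cells with a UMI went from 5.16, 6.60 and 18.3% to 39.1 and 37.1%. Without library H or without library G, the fit in which the remaining day 12.5 library is assumed to vary like the other stages called none of the 8 members, with Cited4 at log2 2.44 and 2.51, Aldh1a3 at -4.26 and -3.92 and Prom1 at -4.58 and -4.34.

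The other 5 members did not pass the test on day 12.5. Plet1, at 3122, 8300.2 and 2446 CPM in the adults and 1080.1 and 1111 on day 12.5, did not overlap between the stages, yet its log2 difference of -1.89 ± 0.58 SE missed the threshold (edgeR adjusted p = 0.058). Without adult library P7, where Plet1 was highest, it was called at log2 -1.33, without D12 at -2.21 and with DESeq2 at -1.98. Kit stood at 74.6, 50.1 and 111 in the adults and 35.9 and 34.5 on day 12.5, with a log2 difference of -1.05 ± 0.46 SE (edgeR adjusted p = 0.157), and was called at -1.34 without P7. Elf5 (log2 0.63), Ehf (0.09) and Barx2 (0.62) overlapped between the stages. Elf5 was called at log2 0.995 without P7.

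**Figure D2:**
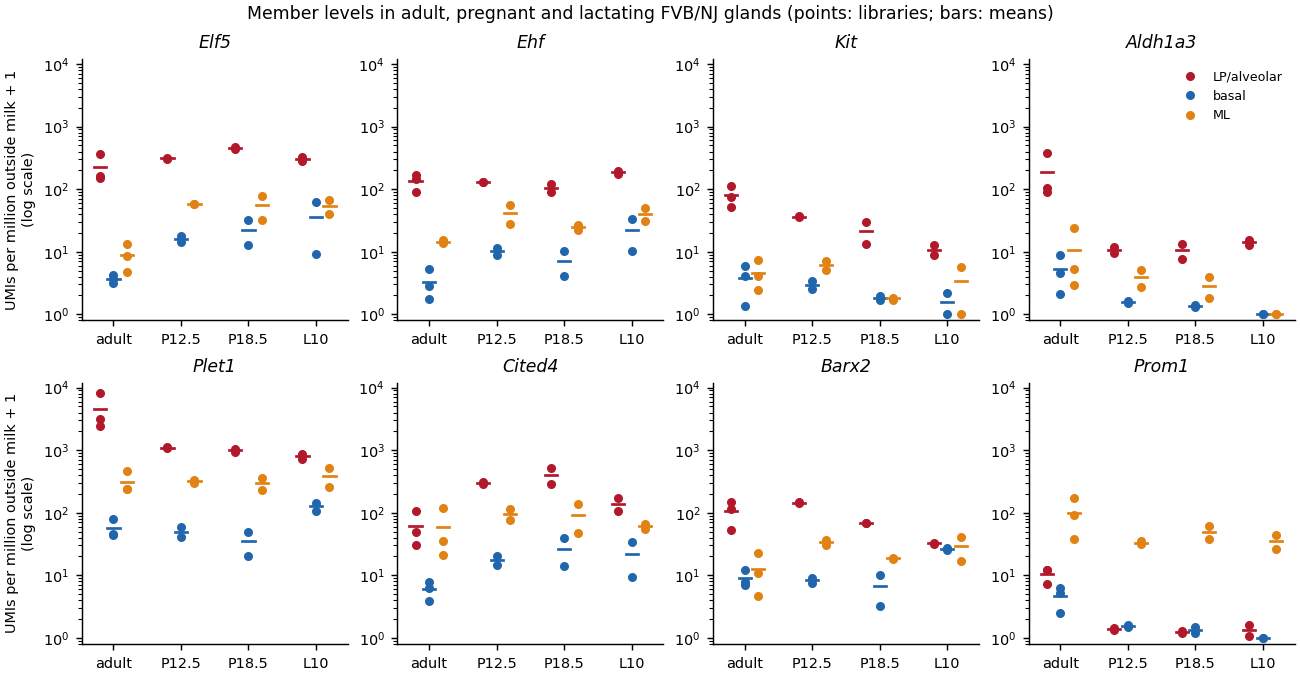
Level of each member (panels) in CPM outside the milk genes plus 1, on a log axis, in LP/alveolar, basal and ML cells of FVB/NJ glands in the adult, on pregnancy days 12.5 (P12.5) and 18.5 (P18.5) and on lactation day 10 (L10). Points are libraries and bars are means. Aldh1a3 and Prom1 dropped in LP/alveolar cells between the adult and P12.5, Kit stood lower at each later stage, and Elf5 and Ehf stayed between 87.8 and 475 CPM at all 4 stages.

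Between the 2 stages of pregnancy, no member was called in LP/alveolar cells (edgeR, background 0.995% of genes called), with 1 of the 8 at an unadjusted p under 0.05 and 0 called by DESeq2. Barx2 had the smallest p, at 140.2 and 148 CPM on day 12.5 and 66.6 and 67.6 on day 18.5, a log2 difference of -1.01 ± 0.39 SE (edgeR adjusted p = 0.234). Cited4 stood at 525 and 283 on day 18.5, on either side of its day 12.5 values. Elf5 stood at 475 and 431, above both day 12.5 values of 306 and 313, and its log2 difference of 0.64 was not called (edgeR adjusted p = 0.507).

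Between pregnancy day 18.5 and lactation day 10, again no member was called (edgeR, background 3.16%), with 2 of the 8 at an unadjusted p under 0.05 and 1 called by DESeq2, Ehf at log2 1.09. Ehf had the smallest p by edgeR as well, at 119.8 and 87.8 CPM on day 18.5 and 173 and 195 in lactation (log2 1.06 ± 0.34 SE, adjusted p = 0.137), and was called at 1.06 without adult library P7. Cited4 stood at 525 and 283 before birth and at 172 and 105 after it, a log2 difference of -1.31 ± 0.56 SE (edgeR adjusted p = 0.273). Barx2, at 32.2 and 31.0 in lactation, was at its lowest of the cycle. Kit, at 11.8 and 7.78, was also at its lowest. Scaled to all UMIs, milk included, where the median of all genes stood at log2 -1.77 at this step, Elf5 (log2 -2.10), Kit (-2.59), Plet1 (-1.84), Cited4 (-3.07) and Barx2 (-2.62) were called lower.

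Across the whole path, from the adult to lactation, 5 of the 8 members had fallen and 2 had risen in LP/alveolar cells, against backgrounds of 13.1% of genes called lower and 15.1% called higher. The 5 that fell were Kit, Aldh1a3, Plet1, Barx2 and Prom1. Kit was 6.01-fold lower (log2 -2.59 ± 0.50 SE, edgeR adjusted p = 0.0048) and Aldh1a3 10.2-fold lower (log2 -3.36 ± 0.64 SE, adjusted p = 0.0044), at 11.8 and 14.6 CPM in lactation. The Kit call was lost without lactation library D6 (log2 -2.39), and Aldh1a3 stood at log2 -2.45 without D12. Both genes stood lower in each lactation library than in any adult library. The median log2 difference of the 8 members was -1.64 against -0.06 over all genes.

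Plet1 was 4.08-fold lower (log2 -2.03 ± 0.58 SE, edgeR adjusted p = 0.0275), at 871 and 729 CPM in lactation, and remained the most abundant member of the class. Barx2 was 2.37-fold lower (log2 -1.25 ± 0.37 SE, edgeR adjusted p = 0.0323), falling from 52.5, 115 and 149 to 32.2 and 31.0. Prom1 was 25.1-fold lower (log2 -4.65 ± 0.75 SE, edgeR adjusted p = 0.0019), with 5 UMIs in F11 and 1 in D6, and was not called (log2 -2.63) when the clusters of each library alone set the class. It stood at log2 -3.57 without D6 and at -6.75 without F11. The summed ML markers of the class stood at 844 and 763 CPM in lactation, within the adult range. The call of Plet1 was lost without any 1 of H, G, F4, B4, F11 or D6 (log2 -1.97 to -2.20), and that of Barx2 without any 1 of these or of D12 (log2 -0.92 to -1.32). Neither changed direction without any 1 library. The Barx2 call was also lost when cells had to hold at least 1000 genes (log2 -1.06).

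Ehf was 1.91-fold higher in lactation than in the adult (log2 0.94 ± 0.30 SE, edgeR adjusted p = 0.0419) and Cited4 3.14-fold higher (log2 1.65 ± 0.50 SE, adjusted p = 0.0326), relative to the median gene, while both stood lower when scaled to all UMIs, milk included (log2 -1.69 and -0.96). Scaling to all UMIs moved the median of all genes by log2 -2.56 in this comparison. Ehf stood at 90.3, 169 and 145 CPM in the adults and at 173 and 195 in lactation, so its groups were apart by a small margin, and Cited4, at 172 and 105 in lactation, overlapped the adults. The call of Ehf was lost without any 1 of A10, D12, H, G, F4, B4, F11 or D6 (log2 0.77 to 0.98), and that of Cited4 without any 1 of A10, P7, H, G, F11 or D6 (log2 1.21 to 1.89). Cited4 stood at log2 2.29 without D12. Both calls were also lost when the clusters of each library alone set the class (log2 0.84 and 1.78), and that of Ehf without a filter on low counts (0.93) and after cells with high doublet scores were removed (0.89). Elf5, the factor of alveolar differentiation, stood at 164, 363 and 152 in the adults and 279 and 331 in lactation (log2 0.93 ± 0.39 SE, edgeR adjusted p = 0.0997), and at log2 -1.70 when scaled to all UMIs. It was called higher, at log2 1.30, without adult library P7.

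**Figure D3:**
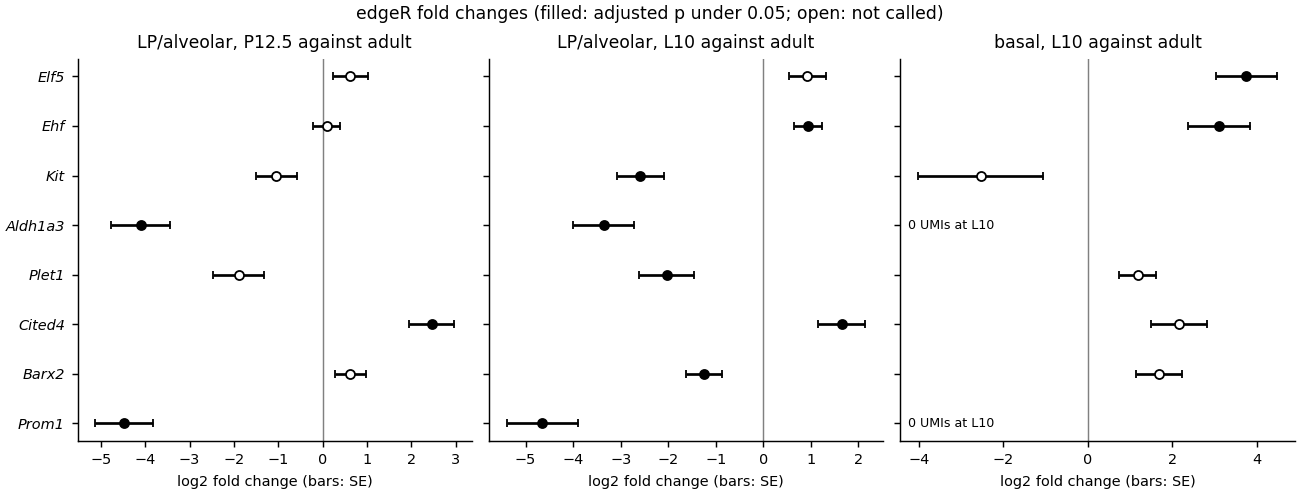
Log2 fold changes of the 8 members by edgeR, with bars of 1 SE, for LP/alveolar cells on pregnancy day 12.5 (left) and lactation day 10 (middle) and for basal cells on lactation day 10 (right), each against the adult. Filled points had an adjusted p under 0.05, and Aldh1a3 and Prom1 are without a point where no UMI was counted. In the LP/alveolar panels Aldh1a3 and Prom1 were already 17.1-fold and 22.2-fold lower on day 12.5 (log2 -3.21 for Prom1 with each library clustered alone), whereas Ehf and Cited4 lay above 0 in lactation under the scaling shown and below 0 when scaled to all UMIs.

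The share of LP/alveolar cells with a UMI was also taken with each cell thinned to 500 UMIs outside the milk genes. Kit went from 3.12, 2.18 and 5.54% to 0.53 and 0.26%, Aldh1a3 from 4.03, 4.35 and 15.9% to 0.48 and 0.50%, and Plet1 from 64.2, 85.0 and 57.6% to 35.0 and 26.4%. Elf5 was seen in 7.32, 17.3 and 6.50% of adult cells and in 13.0 and 15.2% of lactating cells, and Ehf in 4.55, 8.71 and 6.20% and in 7.81 and 8.87%. The shares of Elf5, Ehf and Cited4 overlapped between the stages, although Ehf and Cited4 were called higher in level. At 2000 UMIs in all, of which most were milk in lactating cells, Elf5 was seen in 13.2 and 14.1% and Ehf in 8.76 and 8.71% of lactating cells, below all 3 adults, so that for these ETS factors the order of the shares differed with the treatment of milk.

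Kit, Aldh1a3, Cited4 and Barx2 also stood lower in the cells of a lactation library that held more milk transcripts. LP/alveolar cells were divided by the share of their UMIs in the 8 milk genes, which is a range of a score and not a cell type, and levels were again taken outside the milk genes. In pregnancy library F4, the 159 cells with under 10% milk had Aldh1a3 at 225 CPM, Kit at 104 and Barx2 at 286, and the 5184 cells with 10 to 50% milk had them at 7.36, 10.1 and 61.8. The cells of F4 with the least milk thus held Aldh1a3 and Kit at levels within the range of the adult class, although they were 159 of 5803 cells, and 116 cells lay near the limit of 10%. In B4 the same step took Aldh1a3 from 33.7 to 5.65 and Kit from 62.0 to 28.4, and there the cells with the least milk held Kit within the adult range and Aldh1a3 below it.

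In lactation, cells with 10 to 50% milk numbered 534 in F11 and 176 in D6, and cells with 50% or more numbered 2832 and 3647. Between these ranges Aldh1a3 went from 48.8 to 1.74 CPM in F11 and from 99.8 to 6.50 in D6, and Kit from 42.7 to 3.65 and from 60.9 to 4.02. Cited4 went from 268 to 148 and from 271 to 94.1, and Barx2 from 68.3 to 22.5 and from 65.1 to 26.1. The same 4 members were lower in the milk-rich range of both libraries with limits of 20 and 60% in place of 10 and 50%. Elf5 stood higher in the milk-rich range, at 295 against 221 in F11 and 336 against 258 in D6, and Plet1 and Ehf went in opposite directions in the 2 libraries. In the alternative that kept only LP/alveolar cells with under 50% milk, which was chosen after seeing the data, Kit (log2 -0.31), Aldh1a3 (-0.75), Plet1 (-1.91) and Ehf (0.86) were not called between lactation and the adult, and Barx2 stood at log2 0.03. Cited4 was called higher there at log2 2.44, against 1.65 with all LP/alveolar cells.

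**Figure D4:**
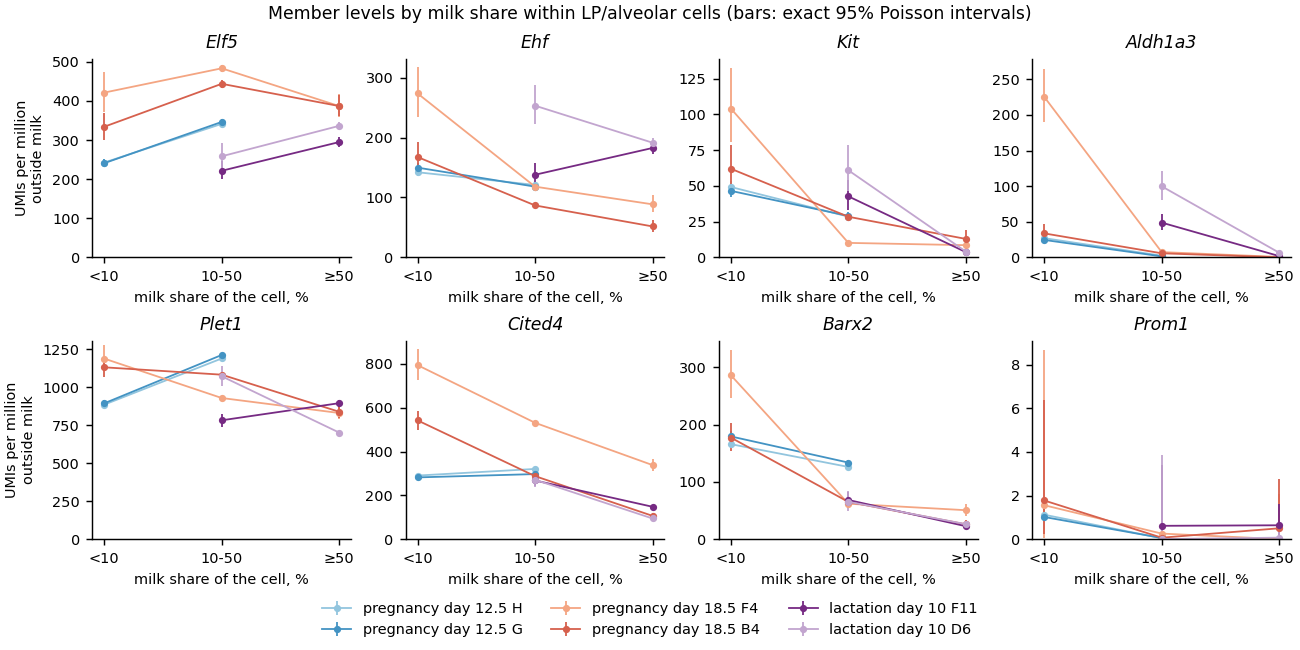
Level of each member (panels) in CPM outside the milk genes, with exact 95% Poisson intervals for counting error, in LP/alveolar cells with under 10%, 10 to 50% and 50% or more of their UMIs in milk genes, for the 6 pregnancy and lactation libraries. Ranges with under 20 cells are left out. Kit, Aldh1a3, Cited4 and Barx2 were lowest in the milk-rich range of both lactation libraries, while Elf5 stayed between 221 and 483 CPM in every range shown.

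In basal cells of the FVB/NJ adults the members lay under 80 CPM, Plet1 highest, and the question was whether they change there too. No member was called on pregnancy day 12.5 against the adult (edgeR, background 1.17%), with 5 of the 8 at an unadjusted p under 0.05 and 3 called by DESeq2. Without library P7, Aldh1a3 (log2 -3.28) and Prom1 (-3.05) were called lower at this step. Nor was any called between the stages of pregnancy (background 0%, 0 at an unadjusted p under 0.05, 0 by DESeq2) or between day 18.5 and lactation (background 0.572%, 3 at an unadjusted p under 0.05, 2 by DESeq2). From the adult to lactation, Elf5 and Ehf were higher in basal cells, 2 of 8 against a background of 2.32%. Elf5 stood at 2.16, 2.66 and 3.29 CPM in the adults, 16.8 and 13.5 on day 12.5, 30.9 and 11.9 on day 18.5 and 60.8 and 8.26 in lactation, a 13.5-fold change (log2 3.76 ± 0.71 SE, edgeR adjusted p = 0.0163). Ehf went from 1.82, 0.76 and 4.28 to 32.4 and 9.44 (8.59-fold, edgeR adjusted p = 0.0471). The Elf5 call was lost without A10 (log2 3.65) or F11 (1.5), and that of Ehf without any 1 library other than D12 (1.79 to 3.77). When cells had to hold at least 1000 genes, F11 had too few basal cells to enter the fit. Lactation was then the 127 basal cells of D6 alone, with Elf5 at log2 2.19 and Ehf at 1.87.

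These basal values rest on few UMIs and moved together with other signals. The lactation libraries gave 60 and 7 basal UMIs of Elf5, and 32 and 8 of Ehf. Milk genes made up 41.3% of basal UMIs in F11 and 11.6% in D6, against at most 0.0475% in the adults, and all 8 milk genes were called higher in basal cells. In stromal cells, Elf5 stood at 0 to 1.09 CPM in the FVB/NJ adults and at 37.6 in F11 and 15.0 in D6. Ehf stood at 0 to 4.35 in the adults and at 15.9 and 9.86 in lactation. P7 and D12 gave only 60 and 32 stromal cells, with 126045 and 181276 UMIs. At 3 counts, a level of 0 in these sums also allows the D6 values. The stromal mix differed as well, with 160 fibroblasts among 206 stromal cells in A10 and 490 adipocytes and 366 immune cells among 1312 in D6. The C57BL/6 and SWISS adults had stromal Elf5 at 6.86 and 19.7 and Ehf at 15.7 and 34.7. The part of free RNA or of alveolar cells caught with basal cells in the 2 basal results was not tested. Aldh1a3 and Prom1 had no UMI in basal cells of either lactation library, against 1.14 to 7.91 and 1.52 to 5.28 CPM in the adults. A count of 0 allows up to 3.04 CPM in F11 and 3.54 in D6 at this depth.

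In ML cells, Elf5 and Ehf were higher on pregnancy day 12.5 than in the adult, 2 of the 6 members tested against a background of 4.80%, and Elf5 alone was higher in lactation, 1 of 6 against 3.04%. Kit and Aldh1a3 had too few UMIs to be tested in this class. Elf5 stood at 3.77, 7.65 and 12.2 CPM in the adults and at 56.3 and 56.1 on day 12.5 (6.79-fold, log2 2.76 ± 0.52 SE, edgeR adjusted p = 0.0084), and at 67.1 and 38.6 in lactation (adjusted p = 0.0137 by edgeR). Ehf went from 14.4, 12.8 and 13.2 to 54.2 and 27.2 on day 12.5 (2.78-fold, edgeR adjusted p = 0.0427). Milk genes took 3.05 and 2.21% of ML UMIs on day 12.5 and 28.6 and 28.7% in lactation, against at most 0.0596% in the adults, and their part in the result was not tested. The ML class held 182 to 375 cells in each pregnancy and lactation library against 1043 to 2967 in the adults. Prom1, the ML gene of the list, stood at 92.6, 169 and 37.4 in the adults and 30.7 and 34.2 on day 12.5 (log2 -1.65 ± 0.56 SE, edgeR adjusted p = 0.0990), and was called at -2.04 without D12. The Elf5 calls were lost without H or G on day 12.5 (log2 2.80 and 2.78), without F11 or D6 in lactation (2.25 and 3.12) and after cells with high doublet scores were removed (1.21 and 2.47), and that of Ehf after the same removal (1.04) or without any 1 library other than A10 or P7 (0.94 to 1.91). With the clusters of each library alone, neither the Elf5 call in lactation (2.76) nor that of Ehf (1.42) was kept.

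Whether a change differed between LP/alveolar and basal cells was tested directly, as an interaction with the library as a block. From the adult to lactation the change of Plet1 was lower in LP/alveolar than in basal cells (log2 -3.16 ± 0.69 SE, edgeR adjusted p = 0.0087), and so was that of Barx2 (-2.93 ± 0.58 SE, adjusted p = 0.0055), 2 of 8 against a background of 8.80%. In basal cells, Plet1 stood at 44.6, 43.3 and 77.4 CPM in the adults and 107 and 143 in lactation, and Barx2 at 6.04, 6.83 and 11 and at 26.4 and 24.8. Both basal differences were positive and neither was called alone. The Plet1 difference was not called with the clusters of each library alone (log2 -2.01), and that of Barx2 was not called with under 50% milk (-1.59). Without D6 the Plet1 difference stood at log2 -2.97. With at least 1000 genes per cell, F11 had too few basal cells to enter, so lactation was D6 alone, with the Barx2 difference at -3.00. The difference of the change was close to the threshold for Elf5 (log2 -2.53, edgeR adjusted p = 0.0506) and Ehf (-2.13, adjusted p = 0.0547), and both were called by DESeq2 (-2.33 and -2.24). On pregnancy day 12.5 no member was called (background 8.95%, 5 at an unadjusted p under 0.05, 0 by DESeq2).

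The timing of the members before adulthood was read from the C57BL/6 glands, with 1 library per age and therefore no test. The pre-pubertal and adult libraries were stated to have been processed together, and the embryonic library in another group. Age and processing group are thus not separated between the embryo and these later ages, and no group was stated for postnatal day 5. Intervals are exact 95% Poisson intervals, which cover counting error only. In the luminal cluster of E18.5 (1003 cells, 8 of 8 luminal markers and 1 of 12 LP/alveolar markers raised), Plet1 stood at 750.2 CPM, Barx2 at 149, Aldh1a3 at 96.3 and Ehf at 50.7, while Elf5 was at 19.6 (16.1 to 23.5) and Kit at 2.94 (1.71 to 4.71). In the basal cluster of the same library (890 cells), Plet1 was at 239, Aldh1a3 at 40.3, Ehf at 6.97, Kit at 5.69 and Elf5 at 2.79. Plet1, Barx2 and Aldh1a3 thus stood above Elf5 and Kit in the embryonic luminal cluster, and Kit did not stand above its level in the cluster named basal. That name is weak at E18.5. With the libraries clustered together, the basal class of E18.5 had basal markers at a summed 2620 CPM, against 29334 at postnatal day 5 and 31384 at 2.5 weeks. The study itself reports little sign of separate lineages at E18.5.

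In the LP/alveolar cluster of postnatal day 5 (339 cells), Elf5 stood at 83.9 CPM, Kit at 83.4, Ehf at 203, Aldh1a3 at 302 and Plet1 at 829. At 2.5 weeks (583 cells), Elf5 was at 235, Kit at 455, Ehf at 289 and Aldh1a3 at 568, and the LP/alveolar cluster of the adult (2534 cells) had them at 241, 421, 314 and 506. Of the 8 members, Kit therefore differed most in fold between E18.5 and 2.5 weeks, from 2.94 at E18.5 to 455 at 2.5 weeks, and Elf5 next, from 19.6 to 235. Plet1 stayed between 750.2 and 859 until 2.5 weeks and stood at 2021 in the adult. Cited4, at 41.0, 85.3, 43.3 and 122 at the 4 ages, had no steady order with age. Barx2, at 149, 194, 263 and 124, stood lower in the adult than at 2.5 weeks. Prom1, at 12.8, 18.7, 2.97 and 2.71, stood lower at 2.5 weeks and in the adult than at E18.5 and postnatal day 5.

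Barx2 and Plet1 were not specific to the luminal lineage in the youngest glands. Barx2 stood at 158 CPM in the epidermal cluster of the E18.5 mammary library, at 301 and 290 in the 2 epidermal clusters of postnatal day 5 and at 212 in the epidermal cluster of E18.5 skin, and Plet1 at 359, 412, 763 and 27.7 in the same clusters. Over all kept cells of E18.5 skin, Elf5 was at 0.417, Kit at 0.516, Ehf at 1.45 and Plet1 at 14.0 CPM, against 11.2, 3.74, 22.1 and 267 over all kept cells of E18.5 mammary gland. All 21 Elf5 UMIs of skin lay in 901 cells that clustered with mammary epithelium, although fibroblast markers summed to 18550 CPM in them. The LP/alveolar class of the E18.5 mammary library, named in another clustering, had these markers at 202. Fibroblast clusters of 2676 and 1525 cells made up part of the 9025 skin cells, so these totals compare tissues and not epithelia. The 2 libraries were captured together.

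**Figure D5:**
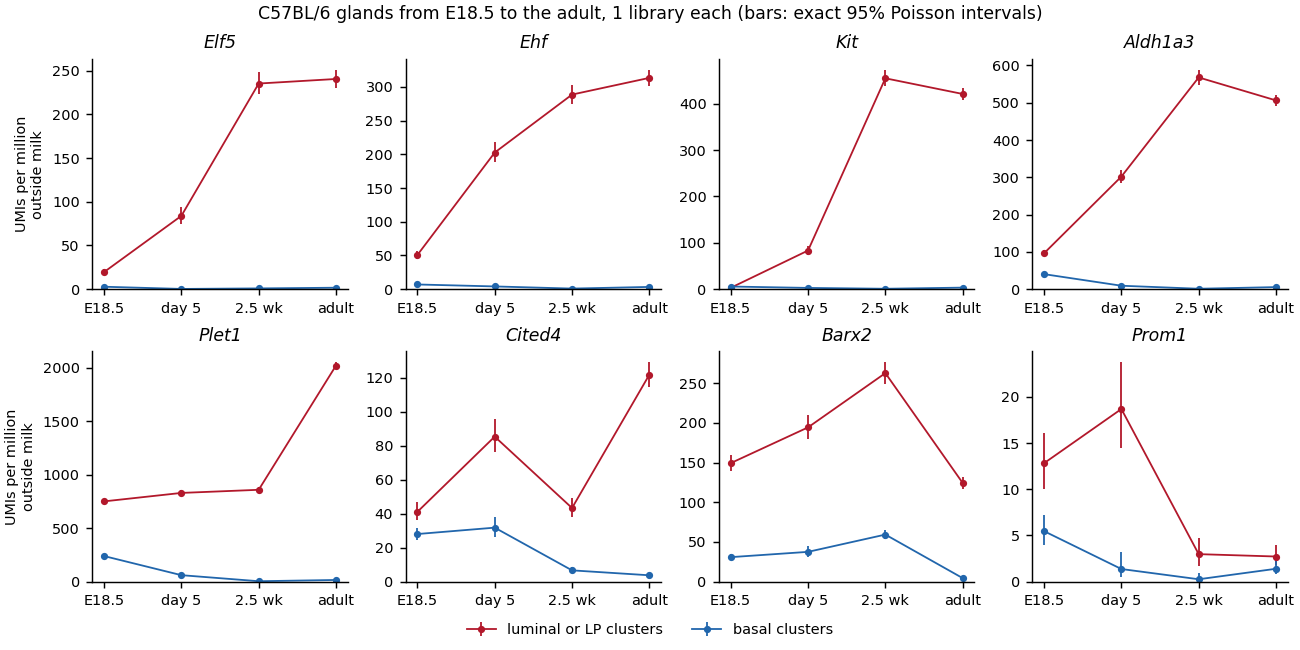
Level of each member (panels) in CPM outside the milk genes, with exact 95% Poisson intervals, in C57BL/6 glands at E18.5, postnatal day 5, 2.5 weeks and 10 weeks (adult). Red points are the luminal (E18.5) or LP/alveolar cluster of each library and blue points the basal cluster with the most basal markers raised. Elf5, Ehf, Kit and Aldh1a3 stood higher at 2.5 weeks than at E18.5, from 19.6 to 235 for Elf5, whereas Plet1 was already at 750.2 at E18.5. Each age is 1 library, and the names luminal and basal are less secure at E18.5.

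In the pubertal gland, the LP/alveolar cells of TEBs (291 cells) and ducts (479 cells) held UMIs of all 8 members, in libraries captured together. Elf5 stood at 343 CPM in TEBs and 545 in ducts, Ehf at 281 and 196, Cited4 at 317 and 147, and Aldh1a3 at 228 and 293, with 1 library of each. Kit stood at 139 and 157, Barx2 at 159 and 128 and Plet1 at 624 and 938. These cells had medians of 16445 and 11578 UMIs.

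Between adult strains, with C57BL/6 and SWISS as single libraries, levels are given for the LP/alveolar clusters of each library alone, since the joint class of C57BL/6 held ML markers. Kit stood at 421 CPM in C57BL/6 and 169 in SWISS, above the FVB/NJ range of 54.9 to 116, and Ehf at 314 and 309, above the FVB/NJ range of 89.9 to 183. Plet1, at 2021 and 1189, lay below the FVB/NJ range of 2588 to 9095. Elf5, at 241 and 183, lay within the FVB/NJ range of 163 to 401. Aldh1a3 stood at 506 and 53.3 against an FVB/NJ range of 82.4 to 394. The C57BL/6 and SWISS adults were stated to have been processed together with the pre-pubertal gland, in a group apart from FVB/NJ adult cells. Strain and processing group are therefore not separated in these levels, and their parts were not tested. By the study's account, estrous stage was not determined in these adults. In the joint LP/alveolar class of the post-involution gland, Aldh1a3 was at 86.1, Kit at 55.5, Barx2 at 93.8, Cited4 at 113, Prom1 at 11.7, Ehf at 119.8, Elf5 at 206 and Plet1 at 1472 CPM. Plet1 lay below all 3 FVB/NJ adults in that class, Aldh1a3 slightly below them, Cited4 and Prom1 slightly above them, and the other members within their range. Post-involution and adult FVB/NJ cells were stated to have been processed concurrently, without naming which of the 3 adult libraries was meant.

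Among related genes fixed as lists, most of those called in LP/alveolar cells between lactation and the adult were lower, relative to the median gene. Over all genes, 28.2% were called in this comparison, 13.1% lower and 15.1% higher. Of 17 further ETS factors, all tested, none was called higher and 8 were lower, with a median log2 difference of -1.35 against -0.06 over all genes, so Ehf, higher under the same scaling, differed in direction from the 8 called relatives. Erf (log2 -2.00), Elf3 (-2.84) and Ets2 (-1.69) were among them, and Etv4 stood at 2.68 to 5.66 CPM in the adults and had 0 UMIs in both lactation libraries. Elf3 encodes another epithelial ETS factor. Of 23 other luminal transcription factors, 22 were tested, 1 was higher and 6 lower, with Foxa1 (log2 -3.08), Tbx3 (-3.18), Tfap2c (-1.34) and Myb (-3.23) lower. FOXA1 and TBX3 are factors of the hormone receptor-positive lineage.

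Of 15 retinoid genes, the partners of Aldh1a3, 10 were tested, 1 was higher and 3 lower, 4 of 10 beside 28.2% of all genes. The retinoic acid receptor Rarg (log2 -2.36) and the binding protein Crabp2 (-1.95) were among those that fell, and the receptor Rxra rose (1.45). Of the 7 family relatives and partners, 6 were tested and 2 were lower (2 of 6 beside the same 28.2%), Cited1 (log2 -3.11), a relative of Cited4, and Kitl (-1.99), the ligand of Kit. Prom2 (0.89) and Cited2 (0.84) were not called. Of 12 other luminal progenitor genes, 1 was higher and 7 lower, with Hey1, a Notch target (-6.45), Lypd3 (-5.16) and the integrin gene Itga2 (-3.01) lower and Slpi, a protease inhibitor, higher (2.37). On day 12.5, where 6.29% of all genes were called higher and 7.20% lower, the same list had 2 higher and 5 lower. Of 34 cell cycle genes, 20 were higher and none lower on day 12.5, and none was higher and 14 were lower in lactation. Their part in the results for the members was not tested.

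Over the 51 sums of the 3 epithelial classes in the 17 mammary libraries, the genes whose log2 levels followed a member most closely were found among 7446 genes. The 3 sums of a library share its depth and handling, so these correlations are descriptions across sums. Elf5 was most like Trim46 (Pearson r = 0.93), Muc15 (0.93) and Cytip (0.91), and Ehf most like Cytip (0.885), Plet1 (0.882) and Spns2 (0.870). Kit was most like Slc5a8 (0.95), Ntn1 (0.93) and Atp6v1b1 (0.89), and Aldh1a3 most like Slc5a8 (0.89), Atp6v1b1 (0.89) and Kit (0.87), so that the 2 progenitor markers had Slc5a8 and Atp6v1b1 among their closest genes in common. Plet1 was most like Ptpn18 (0.90) and Ehf, Cited4 like Gmds (0.86), and Barx2 like Foxc1 (0.81). Prom1 was most like Foxa1 (0.93), Tspan1 (0.91) and Cited1 (0.91), and its correlations with the other 7 members lay between -0.22 and 0.15.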

How the data were processed

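Single cell RNA-seq libraries were made with a 3' droplet kit from sorted cells of pooled mice. The authors aligned reads to mm10 with Cell Ranger (per the file headers, version 3.1.0 for postnatal day 5 and 2.5 weeks and 3.0.2 for the other libraries) and deposited UMI counts per gene and barcode, without normalization. Cells were filtered with limits of the study for each library, then integrated in sets and clustered with Seurat 5.3.0 (2000 variable genes, 20 dimensions, resolution 0.1). The 8 members, the 8 milk genes, cell cycle genes, the 5 lists, and ribosomal, mitochondrial and hemoglobin genes were left out of the clustering. The FVB/NJ libraries formed a set. TEBs and ducts formed a set, and the other mammary libraries of their strain another. SWISS cells were classed in a set of all adult libraries of every strain. Embryonic skin was classed in a set with the embryonic mammary library. Clusters were named from fixed markers, of which at least 3 had to be raised at least 2-fold. Counts were summed per library and class (at least 20 cells). The stages were compared with edgeR 4.0.16 (R 4.3.3, quasi-likelihood test, TMM scaling, filterByExpr, all 9 FVB/NJ libraries of the 4 stages in 1 fit), with Benjamini-Hochberg adjustment over all genes. DESeq2 1.42.0 was an alternative. Doublets were not removed, except in an alternative without the 5% of cells with the highest Scrublet scores (scanpy 1.11.5) in each library. Cells were thinned to 2000 UMIs for shares. Intervals are exact 95% intervals, and a count of 0 is given with the level that 3 counts would give; both cover counting error only. Total UMIs per library ranged from 9920346 to 93234616. Libraries shared barcodes in 120 of 153 pairs, at most 253. Adult library P7, with the lowest total of UMIs, shared none with any other library, while adults A10 and D12 shared 90. Postnatal day 5, pre-puberty, adult C57BL/6 and SWISS shared few with the other libraries. The E18.5 mammary library shared 0, 0, 1 and 3 with these and 117 with A10, while adult C57BL/6 and SWISS shared 42. The reasons were not tested. Tested on simulated data for lactation against the adult in LP/alveolar cells, edgeR recovered 100% of genes changed 4-fold and 68% of those changed 2-fold. For the same stages the 2-fold changes were recovered at 52% in basal cells, 45% in ML cells and 21% for the difference between LP/alveolar and basal cells. The simulation gave all genes the same fixed spread between libraries, not the spread estimated from the data. It changed only genes above a minimum level, so these percentages need not hold for the members. All 8 members were named, with at most 4 genes from each of 5 lists, those with the smallest adjusted p for LP/alveolar cells between lactation and the adult, and the 3 most alike genes per member. The members and lists were chosen with earlier results of these data known.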

Additional observations from a re-analysis of the deposited data

Results flagged for a closer look

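The change from the adult to lactation differed between LP/alveolar and basal cells for 2 members, by a test of the difference itself. For Plet1 the difference was log2 -3.16 and for Barx2 log2 -2.93. Both stood lower in LP/alveolar cells of lactation than of the adult, while their basal levels stood higher in both lactation libraries than in the 3 adults. Milk genes took 41.3% and 11.6% of basal UMIs in F11 and D6, and their part in the basal values was not tested.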

How the results depend on the processing

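Counts below are of members called. From the adult to lactation in LP/alveolar cells, 7 became 4 with clusters within each library alone and 2 with LP/alveolar cells under 50% milk, an alternative chosen after seeing the data, and ranged from 2 to 7 without each library in turn. On pregnancy day 12.5 the 3 calls ranged from 0 to 6 without each library. Between day 18.5 and lactation, 0 became 1 with DESeq2 and 5 without TMM (median of all genes at log2 -1.77), and 0 to 1 without each library. In basal cells on day 12.5, 0 became 3 with DESeq2, 5 without a filter on low counts and 1 with at least 1000 genes per cell (0 to 2 without each library), and between day 18.5 and lactation 0 became 2 with DESeq2 and 3 without the filter. From the adult to lactation in basal cells, 2 became 1 without TMM, 6 without the filter and 1 with clusters alone (0 to 2). With 1000 genes per cell, F11 had too few basal cells to enter. Basal cells and the difference between classes in lactation then rest on D6 alone, so no count is given for them. In ML cells on day 12.5, 2 became 4 without the filter, 1 with 1000 genes, 0 without high Scrublet scores and 1 with clusters alone (0 to 4), and in lactation 1 became 3, 0 without high Scrublet scores and 0 with clusters alone (0 to 2). For the difference between LP/alveolar and basal cells, 0 on day 12.5 became 1 without TMM, 5 without the filter, 2 with 1000 genes and 1 without high Scrublet scores (0 to 2), and 2 in lactation became 4 with DESeq2, 5 without TMM, 4 without the filter, 4 with milk genes removed and 1 under 50% milk (2 to 4). Without TMM, milk included, Elf5 (log2 -1.70), Ehf (-1.69) and Cited4 (-0.96) turned direction in LP/alveolar cells from the adult to lactation, where this scaling put the median of all genes at -2.62, below these 3 members. Barx2 stood at 0.031 there under 50% milk, and the Aldh1a3 difference between classes at -3.33 with clusters alone. The causes were not tested. Leaving out clusters with mostly milk counts gave no value, since no FVB/NJ cluster had over 50% of its counts in milk genes. No paired analysis was possible because the replicate letters are not shared between stages.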
